A study of Mus musculus with 2 samples.

Results

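The genes followed here were 10 members of glycolysis and of the response to low oxygen, read gene by gene in every annotated cell cluster of a single-cell RNA sequencing experiment on nephritic mouse kidney. The set was a list of symbols with no expression threshold, drawn up with earlier results of these data known, and all 10 were among the 20299 genes of the deposited matrix. Slc2a1 imports glucose, Hk2 phosphorylates it and Pfkfb3 makes the activator of phosphofructokinase. Aldoa, Pgk1, Pkm and Ldha encode later enzymes of the path to lactate. Hif1a encodes the oxygen-regulated subunit of hypoxia-inducible factor 1, and Bnip3 (mitophagy) and Vegfa (growth of endothelium) are known targets of that factor.

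Glycolysis splits glucose into pyruvate, and lactate dehydrogenase turns pyruvate into lactate when cells run it fast. When oxygen is low, hydroxylation of the HIF-1α protein stops, the protein escapes degradation and it switches on most of these enzymes. Activated T cells, macrophages and neutrophils are known to lean on glycolysis, and neutrophils do so at rest as well. In the kidney, proximal tubule cells mostly burn fatty acids and can make glucose, whereas podocytes and tubule cells are known producers of VEGF-A. Because HIF-1α is controlled mainly as a protein, the Hif1a transcript is not a readout of the activity of the factor.

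The study compared 1 wild-type (WT) library with 1 library from mice that lack Vsir, the gene of the checkpoint protein VISTA, in the germline (Vsir-/-). Both came from kidneys of male C57BL/6 mice aged 8 weeks with nephrotoxic nephritis, a glomerular injury. Mice were primed with sheep IgG (200 μg, with Freund's adjuvant) and given sheep nephrotoxic serum 4 days later, at 2 μl/g in the labels (the study's methods give another dose). Kidneys were digested with liberase at 0.2 mg/ml and 37°C for 30 min. The labels call the WT library sorted CD45+ cells and the Vsir-/- library all kidney cells, whereas the study's methods describe sorted immune cells for both. The labels and methods do not state how many mice each library held.

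The WT library held 5470 cells and 32799550 unique molecular identifiers (UMIs, counted transcripts), with a median of 4726.5 UMIs per cell. The Vsir-/- library held 1844 cells and 18601189 UMIs, with a median of 6673. Vsir itself was at 4278 UMIs, or 130 CPM (counts scaled to the size of the library), in WT and at 8 UMIs, 0.430 CPM, in Vsir-/-. The libraries shared 5 cell barcode sequences, 0.271% of the Vsir-/- cells. They also stood apart in kidney transcripts: a list of 25 tubule genes summed to 21.3 CPM in WT and to 8717 CPM in Vsir-/-. With 1 library per genotype there is no replicate check and no test; every interval here is an exact 95% interval that covers counting error only, and genotype, library and cell capture cannot be told apart.

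Of 16 annotated clusters, 13 held at least 20 cells in each library, and in 3 of these many Vsir-/- cells lacked transcripts that almost all WT cells of the cluster held. In the non-effector memory-like (non-EM-like) CD4+ T cluster, 233 of 349 Vsir-/- cells held no transcript of 6 genes of the T cell receptor complex (Cd3d, Cd3e, Cd3g, Trac, Trbc1, Trbc2), against 0 of 895 WT cells. In the B cell cluster, 45 of 88 Vsir-/- cells held a UMI of a list of 4 B cell marker genes, Cd79a and Ms4a1 among them, against 969 of 969 in WT. In the proliferating cluster, 123 of 189 Vsir-/- cells held no T cell transcript, against 4 of 118, although 99.5% of them held a proliferation marker. Results are therefore given with and without these 3 clusters, called the mixed clusters; this grouping was chosen after the values were seen. A pair of other clusters carried their defining transcripts in part of their cells in both libraries: Cd8a or Cd8b1 was found in 52.8% and 53.6% of effector memory-like (EM-like) CD8+ T cells, and macrophage transcripts in 84.2% and 95.2% of M2-like R2 cells.

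Counts of each gene were summed over the cells of a cluster and library and divided by all UMIs of that sum, giving a level in CPM, and libraries were compared by the log2 ratio of levels (Vsir-/- over WT, 0.5 UMI added to each count). A pair of gene and cluster was read where both libraries together held at least 20 UMIs, and a ratio of at least 2-fold was counted as higher or lower. Of 130 pairs of the 10 genes and 13 clusters, 114 passed. In Vsir-/-, 24 of them were higher, against 17.7% of the 110590 pairs of all genes, and 3 were lower, against 9.38%. The median of the 114 ratios was 0.32, and that of all genes was 0.07. The interval lay above 0 for 22 of the 24 and below 0 for 2 of the 3. The share of all genes with an interval off 0 was not computed, and intervals narrow as counts grow.

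Most of the higher pairs lay in few places. Vegfa gave 8 of the 24, and 16 came from the other 9 genes. Most of those 8 Vegfa pairs passed the filter only through Vsir-/- counts. The mixed clusters held 14 of the 24 in 30 passed pairs. In the other 10 clusters, 10 of 84 pairs were higher and 2 were lower, where the background was 9.71% and 8.46%. Without Vegfa, 5 of 79 pairs in those clusters were higher, 6.33%, which is below the background of all genes. The log2 ratio plot shows this spread, with all Vegfa values to the right of 0 and most Pkm values close to it.

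By cluster, the genes that were 2-fold higher or lower stood beside these shares of all genes. In EM-like CD4+ T cells 1 of 10 was higher and 0 lower (background 10.4% and 5.41%), in EM-like CD8+ T cells 1 of 5 and 0 (6.03% and 9.98%), and in γδ T cells 1 of 5 and 0 (5.98% and 6.6%). In the CD8+ non-EM-like cluster 3 of 9 were higher and 0 lower (11.1% and 9.66%). NK cells (1 of 9; 9.86% and 7.01%), R1 (1 of 10; 13.6% and 8.78%) and M2-like R2 (1 of 10; 8.11% and 7.61%) each had Vegfa higher and 0 lower. Other R2 had 0 of 8 in either direction (6.71% and 9.52%), and pDC had 0 higher and 1 of 8 lower (11.9% and 10.1%). The non-EM-like CD4+ cluster had 6 of 10 higher and 0 lower (47.8% and 10.7%). With 5 to 10 genes read per cluster, 1 gene alone sets most of these shares.

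**Figure D1:**
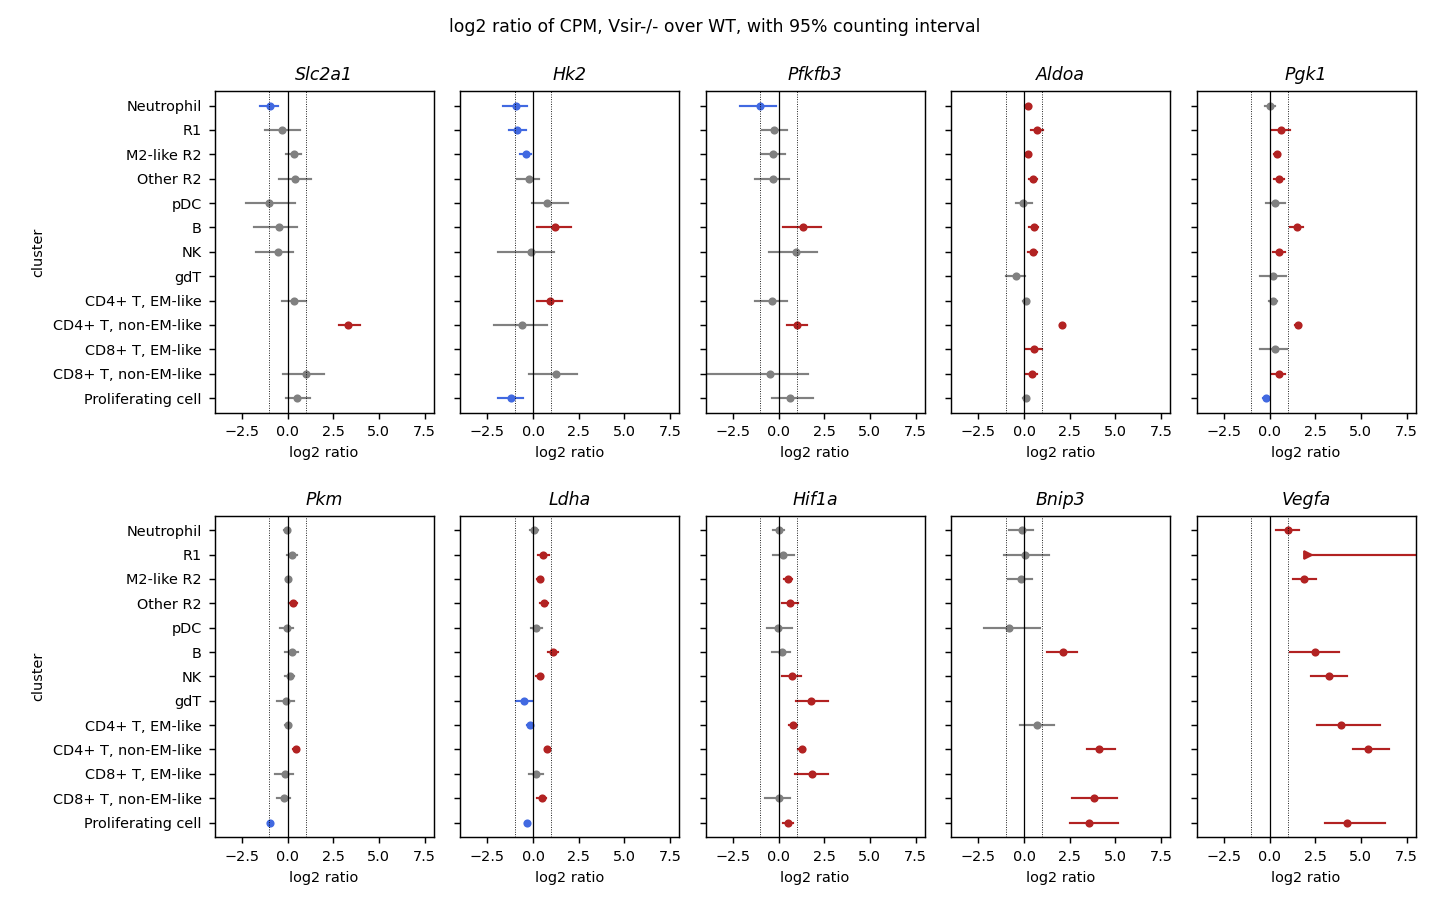
Each panel is 1 gene; rows are the shared clusters and the horizontal axis is the log2 ratio of CPM, Vsir-/- over WT, with its 95% counting interval (red above 0, blue below 0, grey spanning 0; dotted lines mark 2-fold). Vegfa lies right of 0 in all 8 clusters that passed, with the arrowhead for R1 marking a lower limit because WT held 0 UMIs, and Hk2 lies left of 0 in neutrophils, R1, M2-like R2 and proliferating cells.

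The glucose transporter Slc2a1 was most abundant in WT neutrophils, with 266 UMIs and 107 CPM (94.7 to 121). The other 15 WT clusters ranged from 6.51 CPM (CD4+, non-EM-like) to 41.3 CPM (basophils), so neutrophils stood clear of all others. A Slc2a1 UMI was found in 34.2% of 524 WT neutrophils (30.1 to 38.4, Clopper-Pearson) at a median depth of 3565 UMIs, against 3.24% of 895 non-EM-like CD4+ T cells at 4897. With every cell thinned to 1000 UMIs the shares were 10.9% and 0.674%. Vsir-/- neutrophils held 42 Slc2a1 UMIs, or 54.1 CPM, and the log2 ratio was -0.97 (-1.49 to -0.51), just short of a 2-fold decrease. In the non-EM-like CD4+ cluster Slc2a1 went the other way, from 29 UMIs and 6.51 CPM to 304 UMIs and 66.1 CPM, a log2 ratio of 3.32 (2.79 to 3.95).

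In the other 9 clusters that passed, every Slc2a1 interval spanned 0. In M2-like R2 macrophages it was at 36.4 CPM in WT and 46.0 CPM in Vsir-/-. The CD8+ non-EM-like cluster (53 and 9 UMIs, log2 ratio 1.02) and the cluster named plasmacytoid dendritic cells, pDC (8 and 18 UMIs, log2 ratio -1.04), passed the 2-fold limit on these low counts. Over its 11 passed clusters the median log2 ratio was 0.34.

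Hexokinase 2, Hk2, was a myeloid transcript in WT. Basophils held 323 CPM (237 to 430) from only 25 cells, M2-like R2 macrophages 104 CPM (94.9 to 114) and R1 macrophages, the kidney-resident ones, 93.5 CPM (72.2 to 119). The lowest level was 2.69 CPM, among CD4+ cells of the non-EM-like cluster. The share of cells with a Hk2 UMI was 76.0% of basophils and 45.8% of M2-like R2 cells, at median depths of 5061 and 9699 UMIs, and 1.34% of non-EM-like CD4+ T cells. At 1000 UMIs per cell these were 20%, 6.85% and 0.337%. The order was thus the same after thinning.

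In Vsir-/-, Hk2 was lower in 4 clusters with intervals below 0. R1 went from 93.5 to 51.8 CPM (log2 ratio -0.85, -1.34 to -0.36), neutrophils from 57.2 to 29.6 CPM (-0.93, -1.65 to -0.31) and M2-like R2 from 104 to 78.2 CPM (-0.41, -0.71 to -0.13). Proliferating cells went from 39 UMIs and 19.4 CPM to 37 UMIs and 8.32 CPM (-1.22, -1.91 to -0.53), the only 2-fold decrease of Hk2. EM-like CD4+ T cells were higher, 12.8 against 24.1 CPM (0.91, 0.21 to 1.61), as was the mixed B cell cluster, 12.6 against 28.6 CPM (1.21, 0.23 to 2.05). In B cells with a B cell transcript the Vsir-/- level was 22.1 CPM from 7 UMIs, and the ratio was 0.89. The 2-fold higher value in CD8+ non-EM-like T cells (1.27) rested on 7 UMIs in Vsir-/-, 85.7% of them in 1 cell, and without the top cell of each library it was -0.86.

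Pfkfb3 was the least counted enzyme gene, at 431 UMIs in WT and 287 in Vsir-/-. Its highest level in both libraries was in R1 macrophages, 41.7 and 35.6 CPM, and its lowest was in the CD8+ non-EM-like cluster, 4.54 and 2.26 CPM. No neighbours in the order of its levels were told apart by their counting intervals in either library. Neutrophils went from 74 UMIs and 29.8 CPM to 11 UMIs and 14.2 CPM, a log2 ratio of -1.02 (-2.14 to -0.15). The B cell cluster went from 32 UMIs and 9.19 CPM to 12 UMIs and 22.9 CPM (1.35, 0.22 to 2.31), but only 2 of those 12 UMIs were in cells with a B cell transcript, where the level was 6.31 CPM and the ratio -0.24. In the non-EM-like CD4+ cluster Pfkfb3 was at 9.20 and 18.5 CPM, a ratio of 0.998 (0.45 to 1.58), just under the 2-fold limit.

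Neutrophils thus had lower levels of all 3 genes at the entry of glycolysis, each with an interval below 0, while Aldoa, Pgk1, Pkm and Ldha had log2 ratios of 0.20, 0.03, -0.05 and 0.06. Of 10 genes, 1 was higher (Vegfa) and 1 lower (Pfkfb3) by 2-fold in this cluster, where the background was 9.99% and 10.6%. The 5 neutrophil genes that include S100a8 and S100a9 made up 258171 CPM of WT and 283737 CPM of Vsir-/- neutrophils, the tubule list was at 12.5 and 4239 CPM and the T cell list at 451 and 55.3 CPM; the part of any of these in the ratios was not tested. Slc2a3, the other main leukocyte glucose transporter, was at 310 and 260 CPM in neutrophils, a ratio of -0.25 (-0.48 to -0.03).

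Aldoa, which cleaves fructose bisphosphate, was broadly expressed. WT levels ran from 153 CPM in R1 to 557 CPM in basophils, and ILC2 (493 CPM, 427 to 567) and neutrophils (480 CPM, 453 to 508) could not be told from the top. In Vsir-/- the interval of the ratio lay above 0 in 9 of 13 clusters and below 0 in none, but 8 of the 9 were under 2-fold. R1 went from 106 UMIs and 153 CPM to 393 UMIs and 245 CPM (0.68, 0.37 to 1.01), and NK cells from 222 to 308 CPM (0.48, 0.22 to 0.72). The non-EM-like CD4+ cluster went from 165 to 694 CPM (2.07, 1.96 to 2.19) and became the highest of its library.

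Pgk1 encodes the first enzyme of the path that makes ATP. Proliferating cells led in WT with 279 CPM (256 to 303), and B cells (62.0 CPM) and R1 (67.6 CPM) were lowest and not told apart. In Vsir-/- 7 of 13 intervals lay above 0 and 1, that of proliferating cells (243 CPM, log2 ratio -0.20), lay below. The B cell cluster went from 216 UMIs and 62.0 CPM to 91 UMIs and 173 CPM (1.49, 1.11 to 1.84), and cells with a B cell transcript were at 148 CPM (1.27). M2-like R2 cells went from 205 to 274 CPM (0.42, 0.25 to 0.58).

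Pkm, whose product makes pyruvate, had the steadiest levels between libraries. WT neutrophils held 727 CPM and Vsir-/- neutrophils 701 CPM, and M2-like R2 cells 621 and 623 CPM; these were the highest levels of each library in the same order. B cells were lowest in both, at 124 and 147 CPM. The median log2 ratio over 13 clusters was 0.00 and no cluster passed 2-fold. The exception in size was the proliferating cluster, which went from 980 UMIs and 487 CPM to 1120 UMIs and 252 CPM (-0.95, -1.08 to -0.83). Counts per gene do not separate its PKM1 and PKM2 splice forms.

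Ldha, which makes lactate, was highest in WT basophils (681 CPM), ILC2 (622 CPM), proliferating cells (595 CPM) and γδ T cells (534 CPM), and lowest in B cells (136 CPM, 124 to 149). In Vsir-/- the 13 clusters with at least 20 cells ran from 254 CPM in R1 to 525 CPM in the non-EM-like CD4+ cluster. Basophils and ILC2, which led in WT, were under that limit in Vsir-/-, where 19 ILC2 held 82 UMIs and 564 CPM. Intervals lay above 0 in 7 clusters, among them R1 (173 to 254 CPM, 0.55), NK (403 to 523 CPM, 0.38) and Other R2, the patrolling monocyte-like cells (262 to 396 CPM, 0.59). They lay below 0 in 3: γδ T cells (534 to 378 CPM, -0.49), EM-like CD4+ T cells (441 to 391 CPM, -0.17) and proliferating cells (595 to 473 CPM, -0.33). Only the B cell cluster passed 2-fold, 136 against 290 CPM (1.09, 0.81 to 1.35), and its cells with a B cell transcript stood at 227 CPM (0.74).

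Set side by side outside the mixed clusters, the 3 entry genes had a median log2 ratio of -0.28 over 23 pairs, with 1 interval above 0 and 5 below. The 4 later enzymes had a median of 0.21 over 40 pairs, with 18 intervals above 0 and 2 below, and none of these 40 reached 2-fold in either direction. Each later enzyme held 9226 to 18713 UMIs in all and each entry gene 718 to 1535. Intervals of the later enzymes were thus narrower and left 0 at smaller shifts. The difference between the sets was not tested. Processed copies of Aldoa, Pgk1, Pkm and Ldha exist in the genome, so some of their reads may have been assigned elsewhere or dropped. The heat map shows the myeloid position of Hk2 and the shift of the non-EM-like CD4+ column.

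**Figure D2:**
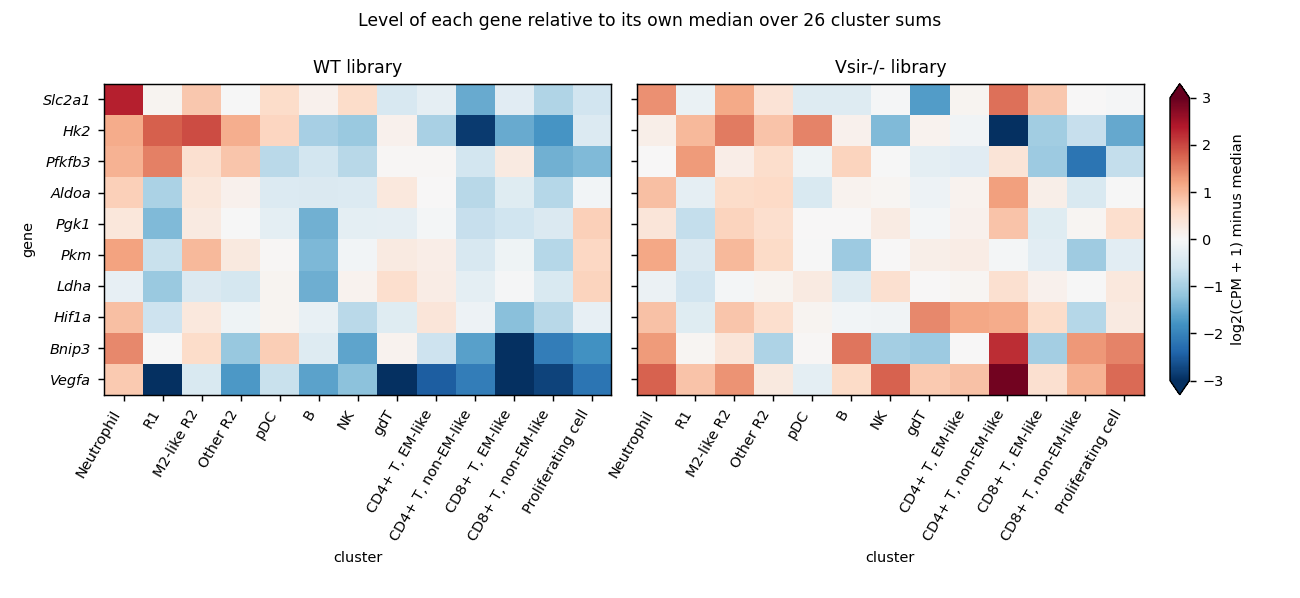
Rows are the genes, columns the shared clusters of each library, and colour is log2(CPM + 1) minus the median of that gene over all columns of both libraries, so colours compare clusters and never genes. Hk2 is darkest red in M2-like R2 and R1 of WT, and Vegfa is blue in most WT columns and red in most Vsir-/- columns.

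Hif1a was at 2560 UMIs in WT and 2401 in Vsir-/-. By the 2-fold rule it was higher in Vsir-/- in 3 of 13 clusters and lower in 0, beside 17.7% and 9.38% of the pairs of all genes. The 3 were γδ T cells, EM-like CD8+ T cells and the mixed non-EM-like CD4+ cluster. The interval of the ratio lay above 0 in 8 of 13 clusters and below 0 in none. WT neutrophils (154 CPM, 139 to 170) and ILC2 (141 CPM, 107 to 183) led and were not told apart, and EM-like CD8+ T cells were lowest (34.0 CPM, 22.6 to 49.2). Neutrophils stood at 153 CPM in Vsir-/-, with an interval of the log2 ratio from -0.32 to 0.29.

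T cells held most of the larger Hif1a differences. The γδ T cells went from 18 UMIs and 64.1 CPM to 40 UMIs and 226 CPM (1.79, 0.98 to 2.71), in a cluster where 5.98% of genes were 2-fold higher. EM-like CD8+ T cells went from 28 UMIs and 34.0 CPM to 20 UMIs and 120 CPM (1.83, 0.92 to 2.70), against a background of 6.03%. EM-like CD4+ T cells went from 299 UMIs and 107 CPM to 292 UMIs and 185 CPM (0.80, 0.56 to 1.03), while the non-EM-like CD8+ cluster was at 45.8 and 45.2 CPM. Both 2-fold values held in all 13 alternatives that gave one, with ratios of 1.36 to 1.90 in γδ T cells and 1.62 to 1.90 in the EM-like CD8+ subset. These clusters held 46 and 28 γδ T cells and 197 and 28 EM-like CD8+ T cells. The 10 genes of a list induced by tissue dissociation, Fos and Jun among them, stood higher in Vsir-/- in most clusters. They went from 4457 to 11842 CPM in γδ T cells and from 3659 to 6661 CPM in the EM-like CD8+ subset. EM-like CD4+ T cells went from 3506 to 9907 CPM and the non-EM-like CD8+ cluster, where Hif1a was level, from 2259 to 5453 CPM. The list was lower in the B cell cluster and in neutrophils. The part of these genes in the Hif1a values was not tested.

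In the same EM-like CD8+ T cells, the 4 later enzymes had smaller ratios than Hif1a (1.83, 0.92 to 2.70). The intervals of Aldoa and Pgk1 overlapped that of Hif1a, and the difference between genes was not tested. Aldoa was at 227 and 331 CPM (0.55, 0.08 to 0.99), Pgk1 at 112 and 133 CPM (0.27, -0.50 to 0.93) and Ldha at 366 and 410 CPM (0.17, -0.24 to 0.55). Pkm was at 287 and 253 CPM (-0.17, -0.69 to 0.30). Slc2a1, Hk2, Pfkfb3, Bnip3 and Vegfa did not reach 20 UMIs there and were not counted. Vegfa had 0 UMIs in WT and 3 in Vsir-/-, with a lower bound of 1.03 for the log2 ratio.

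Among macrophages, Hif1a was at 103 and 149 CPM in M2-like R2 (0.53, 0.30 to 0.75) and at 75.7 and 118 CPM in Other R2 (0.64, 0.21 to 1.06). R1 showed 53.2 and 63.7 CPM with an interval across 0. Hif1a and Hk2 therefore had ratios of opposite sign in M2-like R2.

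To show what letters the promoters carry, the RefSeq windows of these genes (GRCm38.p6, 250 bases before to 50 after a transcript start) were searched for the core of the hypoxia response element, ACGTG or GCGTG, on both strands; CACGTG holds 1 match on each strand and these overlap. All 10 genes had a window. Taking the first window listed per gene, 7 of 10 held a match, against 43.8% of all genes, and 6 held at least 2, against 20.8%. Aldoa, Pkm and Vegfa had none in that window and at least 1 in another window of the gene. Of the 6 genes that were higher in the B cell cluster, Hk2 and Pfkfb3 are not shown and held 1 match each in their first 200 bases. The first 200 bases are shown for the 4 windows of the rest, Vegfa with the largest ratios among them, with capitals marking matches. They are Pgk1 at chrX:106186850-106187049 (plus strand), Ldha at chr7:46845554-46845753 (plus), Bnip3 at chr7:138909557-138909756 (minus) and Vegfa at chr17:46032428-46032627 (minus).
Pgk1: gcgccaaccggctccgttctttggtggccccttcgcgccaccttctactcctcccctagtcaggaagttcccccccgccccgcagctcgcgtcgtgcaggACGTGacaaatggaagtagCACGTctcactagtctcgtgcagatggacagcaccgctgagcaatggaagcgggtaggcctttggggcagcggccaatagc
Ldha: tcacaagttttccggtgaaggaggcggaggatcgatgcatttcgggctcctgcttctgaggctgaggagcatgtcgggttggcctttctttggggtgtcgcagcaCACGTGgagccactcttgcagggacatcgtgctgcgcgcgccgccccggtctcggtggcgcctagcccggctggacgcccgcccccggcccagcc
Bnip3: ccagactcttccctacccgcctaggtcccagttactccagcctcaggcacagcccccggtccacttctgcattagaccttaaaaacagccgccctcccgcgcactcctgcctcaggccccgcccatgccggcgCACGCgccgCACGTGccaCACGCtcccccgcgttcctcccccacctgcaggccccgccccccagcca
Vegfa: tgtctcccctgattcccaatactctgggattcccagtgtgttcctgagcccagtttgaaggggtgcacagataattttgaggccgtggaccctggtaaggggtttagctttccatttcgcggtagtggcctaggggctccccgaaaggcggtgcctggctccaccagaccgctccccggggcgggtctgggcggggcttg
Bnip3 held 4 matches in these 200 bases, Pgk1 and Ldha 2 each and Vegfa 0. A match is a description of letters, and nothing about binding was measured here.

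Bnip3 was low in every WT cluster, from 0 of 823228 UMIs (up to 3.64 CPM at a floor of 3 counts) among EM-like CD8+ cells to 37.1 CPM in neutrophils. In Vsir-/- it was at 633 UMIs against 317. Of 9 passed clusters 4 were 2-fold higher, beside 17.7% of the pairs of all genes. The mixed clusters were 3 of these 4. In them 47.8% (non-EM-like CD4+), 37.5% (proliferating) and 16.3% (B) of all genes were 2-fold higher. The non-EM-like CD4+ cluster went from 16 UMIs and 3.59 CPM to 295 UMIs and 64.2 CPM (4.12, 3.44 to 4.99), proliferating cells from 6 to 171 UMIs (2.98 to 38.5 CPM; 3.58, 2.54 to 5.15) and the B cell cluster from 34 to 22 UMIs (9.76 to 41.9 CPM; 2.11, 1.26 to 2.92). Non-EM-like CD8+ T cells went from 12 UMIs and 2.37 CPM in 659 cells to 15 UMIs and 33.9 CPM in 50 cells (3.83, 2.64 to 5.07), where 11.1% of all genes were 2-fold higher.

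The clusters with the most Bnip3 in WT did not follow. Neutrophils held 37.1 and 33.5 CPM, pDC 22.7 and 13.5 CPM (6 and 16 UMIs) and M2-like R2 cells 19.8 and 17.3 CPM, with all these intervals across 0. In cells whose tubule list was under 0.5% of UMIs, Bnip3 stayed 2-fold higher in 2 of the mixed clusters. The non-EM-like CD4+ cluster was at 3.59 and 12.9 CPM (1.83, 0.86 to 2.86) and proliferating cells at 2.98 and 8.15 CPM (1.37, 0.11 to 3.04). The B cell cluster was at 9.76 and 10.3 CPM (0.28, -2.27 to 1.74) and EM-like CD4+ T cells at 8.21 and 3.62 CPM (-1.08, -2.93 to 0.24). The non-EM-like CD8+ (12 and 5 UMIs) and pDC (6 and 13 UMIs) clusters then no longer passed. The median ratio over the clusters that passed went from 0.70 to -0.11.

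Vegfa had the largest ratios. It was at 156 UMIs in WT and 892 in Vsir-/-, and all 8 passed clusters were at least 2-fold higher, with intervals above 0. WT neutrophils held 56 UMIs and 22.6 CPM (17.1 to 29.3), and were told apart from M2-like R2 cells, next at 8.88 CPM. In Vsir-/- neutrophils Vegfa was at 35 UMIs and 45 CPM (log2 ratio 1.004, 0.34 to 1.63), and 8 of 15 alternatives kept it 2-fold higher. Without the 0.5 UMI added to each count the neutrophil fold was 1.996, just under the 2-fold limit. M2-like R2 cells went from 39 to 56 UMIs (33.4 CPM; 1.91, 1.30 to 2.54) and NK cells from 18 to 23 UMIs (4.79 to 45.4 CPM; 3.24, 2.29 to 4.22). EM-like CD4+ T cells went from 4 to 38 UMIs (1.43 to 24.1 CPM; 3.93, 2.60 to 6.02).

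The R1 cluster held 0 Vegfa UMIs in WT and 38 in Vsir-/- (23.7 CPM), at least 5.50-fold higher against a floor of 3 counts. Its endothelial genes were at 37.4 CPM in WT and 1010 CPM in Vsir-/-, and its podocyte genes at 1.44 and 167 CPM. Ptprc was found in 110 of 116 WT and 185 of 237 Vsir-/- cells of R1, although all 237 held a macrophage transcript. The part of other kidney cells in this Vegfa value was not tested. The non-EM-like CD4+ cluster went from 10 to 456 UMIs (2.24 to 99.2 CPM; 5.40, 4.57 to 6.54), proliferating cells from 4 to 190 UMIs (4.26) and the B cell cluster from 12 to 10 UMIs (2.48). The median log2 ratio over the 8 clusters was 3.58, or 2.86 with R1 at its bound of 2.46. Vsir-/- levels ran from 10.1 CPM in pDC to 99.2 CPM, and WT levels from 0 to 22.6 CPM.

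Kidney transcripts were higher in Vsir-/- in all 13 clusters. With the filter on low counts set aside, the Vegfa interval lay above 0 in 12 of them, of which 8 had passed. Below the filter were EM-like CD8+ T cells (0 and 3 UMIs) and γδ T cells (0 and 4 UMIs). So were the non-EM-like CD8+ cluster (5 and 12 UMIs) and Other R2 (4 and 12 UMIs). The share of all genes with an interval above 0 was not computed. The exception among the 13 was pDC, also below the filter. There Vegfa was at 7.56 and 10.1 CPM (2 and 12 UMIs; log2 ratio 0.16, -1.74 to 3.63) and the tubule list at 15.1 and 1513 CPM. Over the 13 clusters the 25 tubule genes summed to between 3.37 and 45.5 CPM in WT, with 2 to 8 of the 25 detected, and to between 1513 and 19398 CPM in Vsir-/-, with 22 to 25 detected. The 4 podocyte genes summed to at most 6.39 CPM in WT and to between 11.3 and 327 CPM in Vsir-/-, and 6 endothelial genes to at most 158 and 3700 CPM. Per 1000 tubule UMIs, Vsir-/- clusters held from 2.14 Vegfa UMIs (B, 1.03 to 3.94) to 17.1 (M2-like R2, 13 to 22.3), with 5.11 (4.65 to 5.60) in the non-EM-like CD4+ cluster. These ratios were not equal across clusters: the interval of M2-like R2 did not overlap that of the non-EM-like CD4+ cluster. In WT, M2-like R2 cells already held 39 Vegfa UMIs (8.88 CPM) and the non-EM-like CD4+ cluster 10 (2.24 CPM). What made the ratios unequal was not tested.

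When only cells with under 0.5% tubule UMIs were kept, Vegfa remained 2-fold higher in 6 of the 7 clusters that passed. The share of the pairs of all genes that were higher in this setting was 13.9%. Of the 6, only M2-like R2 (39 UMIs) held at least 20 UMIs in WT, so the others passed only through Vsir-/- counts. The limit read tubule genes only, not podocyte or endothelial ones. R1 was at 24.0 CPM, NK cells at 32.4 CPM, M2-like R2 cells at 32.4 CPM and EM-like CD4+ T cells at 12.3 CPM in Vsir-/-. Neutrophils dropped to 29.1 CPM, a ratio of 0.39. Such cells still held tubule transcripts above the WT level, and whether they or free RNA from kidney cells account for Vegfa was not tested. The plot against the tubule list places all Vsir-/- clusters to the right of all WT clusters.

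**Figure D3:**
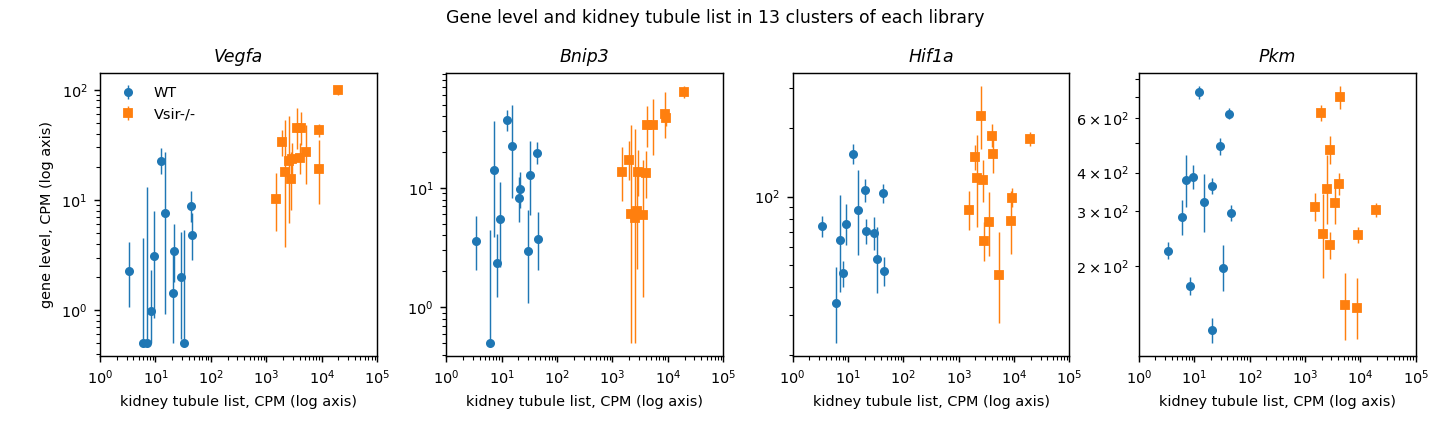
Each point is the sum of 1 cluster in 1 library; the horizontal axis is the kidney tubule list and the vertical axis the gene, both in CPM on log axes, with 95% counting intervals and values at 0 drawn at 0.5 CPM. Vegfa and Bnip3 reach their highest levels in the Vsir-/- cluster with the most tubule transcripts (19398 CPM), while Pkm covers the same range in both libraries.

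In the mixed non-EM-like CD4+ cluster 6 of 10 genes were 2-fold higher, as many as in the B cell cluster, but here 47.8% of all genes were and the median of all genes was 0.91. The 116 Vsir-/- cells with a T cell transcript and the 233 without differed in most of the genes. Cells without held 113 CPM of Vegfa against 59.9 CPM, 77.0 against 28.7 CPM of Bnip3 and 72.5 against 48.4 CPM of Slc2a1. Aldoa (751 and 536 CPM), Pgk1 (344 and 217 CPM) and Ldha (573 and 395 CPM) were also higher in cells without, with intervals of the ratio above 0. Hk2 was nearly absent from them, with 1 UMI in 3378584 against 7 UMIs in 1219083.

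The cells with a T cell transcript were still unlike WT. Their Hif1a stood at 185 CPM against 74.1 CPM in WT (1.32), Slc2a1 at 48.4 against 6.51 CPM (2.88) and Pgk1 at 217 against 105 CPM (1.05). In the 132 cells of the cluster with under 0.5% tubule UMIs the log2 ratios were 0.77 for Hif1a, 1.98 for Slc2a1 and 0.32 for Pgk1, so Hif1a and Pgk1 were then under 2-fold. In the cells with a T cell transcript, whatever their tubule share, the tubule list was at 8172 CPM. A transcript of Ptprc, which encodes CD45, was found in 78.4% of them, against 6.44% of the cells without a T cell transcript. Among the cells without a T cell transcript, 31 held at least 3 podocyte UMIs, and in these Vegfa was at 119 CPM and Bnip3 at 15.9 CPM. In 167 cells with tubule transcripts and almost no podocyte or endothelial ones, Vegfa was at 119 CPM and Bnip3 at 103 CPM.

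The proliferating cluster split differently. Pkm was at 397 CPM in the 66 cells with a T cell transcript and at 182 CPM in the 123 without (log2 ratio -1.12, -1.30 to -0.95), next to 487 CPM in WT. Bnip3 was at 10.4 and 52.0 CPM, Vegfa at 25.7 and 51 CPM and Hif1a at 127 and 85.6 CPM. Ldha was close in both, at 437 and 491 CPM. Over the 10 genes 2 were higher and 1 lower by 2-fold in this cluster, against 37.5% and 9% of all genes. In the B cell cluster 6 of 10 were higher and 0 lower, against 16.3% and 15.9%.

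**Figure D4:**
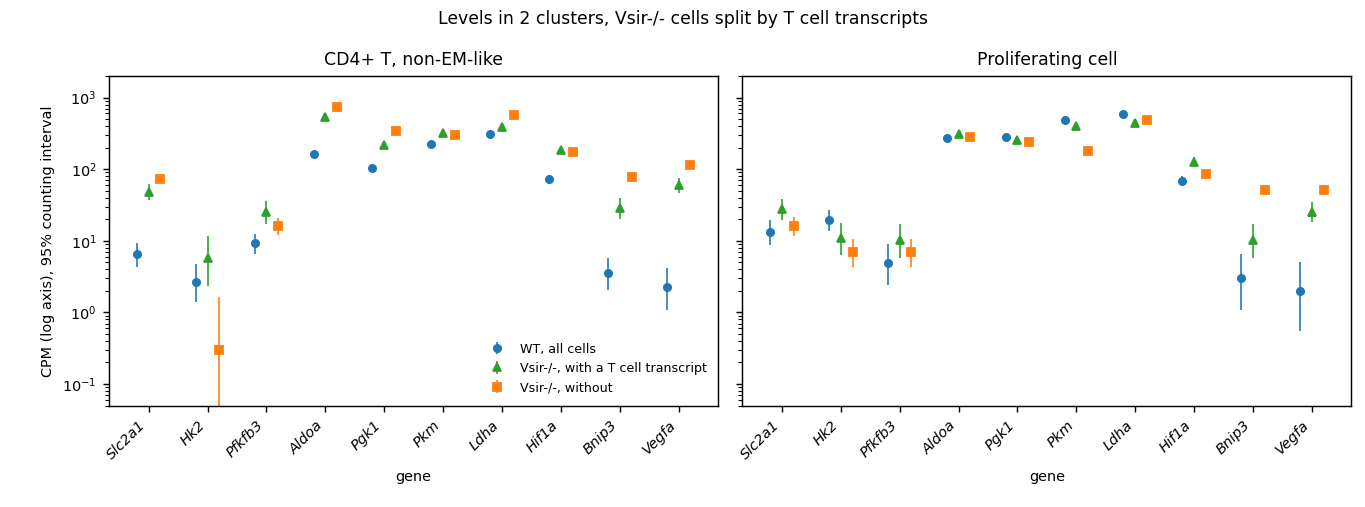
Levels of each gene in CPM on a log axis with 95% counting intervals, for WT cells and for Vsir-/- cells with and without a T cell transcript, in the non-EM-like CD4+ and the proliferating cluster. Vegfa and Bnip3 are highest in cells without a T cell transcript in both clusters, and Hk2 is lowest in them.

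Other genes of the same pathways were read from lists. Of 19 further glycolysis genes, 29 of 166 passed pairs were 2-fold higher and 11 lower, with a median of 0.06. The shares of this list were 17.5% and 6.63%, against 17.7% and 9.38% of the pairs of all genes. Of the 29, the mixed clusters gave 10 (non-EM-like CD4+), 3 (B) and 2 (proliferating). The highest medians were those of Ldhb (5.40; 334 UMIs in WT and 7953 in Vsir-/-), Tpi1 (0.63) and Pgam1 (0.44). Ldhb, the lactate dehydrogenase subunit of oxidative tissue, was 2-fold higher in 12 of 12 clusters, most of which passed the filter only through Vsir-/- counts. The lowest were Slc2a3 (-1.73), Eno1 (-0.78) and Pfkfb4 (-0.61). Slc2a3 was 2-fold lower in 6 of 11 clusters, among them R1 (32 UMIs and 46.0 CPM in WT, 6 UMIs and 3.75 CPM in Vsir-/-). The 6 T cell genes were also lower in clusters of other cells, at 574 and 20.6 CPM in R1, 310 and 40.0 CPM in M2-like R2, 559 and 26.2 CPM in pDC and 86.7 and 7.62 CPM in the B cell cluster, and their part in the Slc2a3 values was not tested. Eno1 was lower with an interval below 0 in 12 of 13.

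Of 22 further hypoxia response genes, 48 of 201 pairs were higher and 13 lower, with a median of 0.30. The shares of this list were 23.9% and 6.47%, against 17.7% and 9.38% of the pairs of all genes. Of the 48, the mixed clusters gave 14 (non-EM-like CD4+), 10 (proliferating) and 7 (B). Ndrg1 (4.24), Egln3 (2.19) and Hmox1 (1.19) had the highest medians. Ddit4 (-0.76), Pdk1 (-0.66) and Ankrd37 (-0.58) had the lowest, so known targets of the factor were found on both sides. Egln3 was higher in 4 of 5 clusters, and all 4 passed the filter only through Vsir-/- counts. The largest Hmox1 ratios, in the non-EM-like CD4+ (2 and 88 UMIs) and proliferating (4 and 143 UMIs) clusters, passed in the same way. So did Ndrg1 in part of its clusters. Pdk1, a kinase that keeps pyruvate out of mitochondrial oxidation, had 1373 UMIs in WT and 265 in Vsir-/-, libraries of unlike size and cell make-up. It was 2-fold lower in 3 of 10 clusters. These were the mixed non-EM-like CD4+ (573 and 76 UMIs) and B (94 and 4 UMIs) clusters and NK cells (59 and 2 UMIs).

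Of the oxygen sensing machinery, Epas1, which encodes HIF-2α, was at 65 UMIs in WT and 2404 in Vsir-/-, and higher in 9 of 9 clusters (median 5.20). Most of these clusters passed the filter only through Vsir-/- counts. Arnt, the partner subunit of HIF-1α, had a median of -0.62 and was 2-fold lower in 1 of 12. Vhl (0.11), Hif1an (-0.05), Egln2 (-0.04), Eloc (0.07), Elob (0.12), Cul2 (0.41) and Rbx1 (0.01), which degrade or inhibit the factor or regulate its stability, had medians nearer 0. The list as a whole had 14 of 104 pairs higher and 2 lower, and Epas1 gave 9 of the 14. These shares, 13.5% and 1.92%, were below the 17.7% and 9.38% of the pairs of all genes.

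Tubular genes of glucose metabolism and the list of VEGF receptors and family were higher in almost all pairs, 52 of 55 and 46 of 50, against 17.7% of the pairs of all genes. A gene at 0 UMIs in WT could pass the filter only through Vsir-/-, so its higher ratio was given in advance. Fbp1, an enzyme of glucose synthesis, was at 0 UMIs in WT and 2635 in Vsir-/-, Pck1 at 0 and 1387 and G6pc at 0 and 735. Slc5a2, Slc5a12 and Slc2a2, tubular transporters, were at 0 in WT and at 717, 646 and 419 UMIs in Vsir-/-, while Khk went from 463 to 1500 and Pcx from 14 to 316. Kdr, the main VEGF-A receptor of endothelium, went from 14 to 5768 UMIs, Flt1 from 180 to 3055, Nrp1 from 586 to 5702, Nrp2 from 71 to 567 and Vegfb from 245 to 786.

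The patterns of the 10 genes over the 29 sums of cluster and library with at least 20 cells were not uniform. The highest Spearman correlation between members, as a description of points that share libraries and depth, was 0.66 for Aldoa and Pkm. Over the 16 clusters of WT alone it was 0.91, for Pgk1 and Pkm, and over the 24 sums with at least 50 cells it was 0.80, for Aldoa and Hif1a. Outside the lists, Vegfa was most like Lgr4 and Clmn (both 0.90), Hk2 like Man2b1 (0.88) and Gm2a (0.86), Pkm like Nfil3 (0.83) and Mrpl33 (0.81), and Hif1a like Pofut2 (0.80) and D8Ertd738e (0.76). Slc2a1 was most like Mindy1 (0.80) and Dgat2 (0.74), Ldha like Calm3 (0.80) and Dnttip1 (0.77) and Pgk1 like Kmt5a and Txn1 (both 0.79). Bnip3 was most like Tcn2 (0.78) and Peli2 (0.76), Aldoa like Por (0.77) and Mocos (0.76) and Pfkfb3 like Fam214b (0.75) and Acp2 (0.72). In WT alone, over 16 clusters, Calm3 stayed first for Ldha and the first gene of each other member was a different one.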

How the data were processed

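Kidney cells of 1 WT and 1 Vsir-/- library were profiled with 10x Genomics 3′ chemistry version 3.1. The submitters' processing notes name Cell Ranger 3.1.0, R 4.0.3, Seurat 3.2.3 and the build mm9; gene coordinates of the files were not used. The authors deposited UMI counts per gene and cell, which hold only integers, and a table of each cell's library, cluster name and percent of mitochondrial counts; its UMI totals per cell equalled the sums of the deposited counts. The study states filters of at least 200 UMIs and at most 10% mitochondrial counts per cell; the 7314 cells deposited held at least 501 UMIs. Doublet removal is not given in the sources used here, and no caller was run. Cluster names were taken from the authors' table.

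Counts were summed by cluster and library in Python 3.11.15 (numpy 2.4.6, scipy 1.17.1, pandas 2.3.3), over all genes, and scaled to CPM of the sum. Exact Poisson intervals were used for levels, exact conditional binomial intervals for ratios and Clopper-Pearson intervals for shares of cells, all at 95%. With 1 library per genotype no test was run, and genotypes were compared only by these values. Cells were thinned to 1000 UMIs for shares; 167 WT and 78 Vsir-/- cells were shallower and left out of those. edgeR was used only for TMM factors, as an alternative scaling. Scripts were checked on simulated counts. The members, gene lists and tests were chosen with earlier results of these data known. All 10 members are named; further genes are the 3 highest and 3 lowest medians of the glycolysis and hypoxia lists among genes passing in at least 5 clusters, those with at least 200 UMIs in the other 3 lists (1 such gene is not reported here), and the 2 most alike genes per member.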

Additional observations from a re-analysis of the deposited data

Results flagged for a closer look

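Hk2 moved in opposite directions in 2 clusters, with counting intervals that excluded 0 in both: the log2 ratio, Vsir-/- over WT, was 1.21 in the B cell cluster and -1.22 in proliferating cells. Pfkfb3 likewise was at 1.35 in the B cell cluster and at -1.02 in neutrophils. The difference between the clusters was not tested in either case, since each genotype had 1 library. Limited to cells with a transcript of their own cluster's markers, the ratios in B cells were 0.89 for Hk2 and -0.24 for Pfkfb3, from 7 and 2 UMIs in Vsir-/-.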

How the results depend on the processing

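Under 16 alternatives, 14 planned and 2 chosen after seeing the data, the count of 24 higher pairs stayed within 1.5 times in all but 3: at least 100 UMIs per pair (10 of 79 pairs, 12.7%, against 14.6% of all genes), thinning to 1000 UMIs (11 of 68, 16.2% against 13.2%) and leaving out the 3 mixed clusters (10 of 84, 11.9% against 9.71%). With TMM scaling the shares were 16.7% and 15.6%. The members' share was also below that of all genes with no filter on low counts (23.1% and 30.2%). Without the top cell of each member the members' share was 17.3%. All other genes kept their top cell in that setting, so their 17.7% is not a like measure. The count of 3 lower pairs became 5 with TMM scaling, 7 as a mean over cells and 0 at 100 UMIs. The Bnip3 median of 0.70 became 1.72 at 100 UMIs, 1.31 after thinning, 1.31 without the top cell, 1.41 with at least 50 cells, -0.11 in cells under 0.5% tubule UMIs and -0.044 without the mixed clusters. The Vegfa median of 3.58 became 4.83, 1.90 and 2.98 at 100 UMIs, after thinning and under 0.5% tubule UMIs, and the Pfkfb3 median of -0.26 became 0.36 and -2.06 under the first 2 of these; fewer clusters then passed. Medians of the other 7 genes moved by less than 1.5-fold. Single 2-fold calls turned direction for Hk2 in B cells as a mean over cells (-0.61), Hk2 in non-EM-like CD8+ T cells without the top cell (-0.86) and Pfkfb3 in B cells with a B cell transcript (-0.24); the cause was not tested. With TMM scaling 21 of 27 calls were kept and 3 gained. No paired analysis was possible because each genotype had 1 library, and no replicate could be left out. Depth limits the low genes most: Bnip3 and Vegfa passed in 9 and 8 of 13 clusters.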
